A study of Mus musculus with 18 samples.

Results

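Reaching confluence is the step that separates dividing myoblasts from myoblasts about to differentiate, and its effect on the transcriptome was measured here with both genotypes pooled. The comparison sets the 6 libraries from cells at day 0 of differentiation (D0, just confluent) against the 6 libraries from proliferating cells (Prol), which are 12 of the 18 RNA-seq libraries in the series. Libraries were paired by genotype and replicate number, giving 3 wildtype (WT) pairs and 3 LAP2α knockout (KO) pairs, and all genes that passed a minimum count entered the test. LAP2α (lamina-associated polypeptide 2 alpha) is a nucleoplasmic isoform encoded by Tmpo that binds lamin A/C and the retinoblastoma protein. Both genotypes are immortalized mouse myoblasts that also lack p53, and all 12 cultures grew on collagen-coated plates in medium with 20% fetal calf serum. KO cells are a pool that received Cas9 with a guide against LAP2α and was sorted for the plasmid's fluorescent marker, so they are not 1 clone, and the WT cells received the same Cas9 plasmid without a guide and were sorted in the same way. The remaining 6 libraries came from cells held for 2 further days in 5% serum (D2) and are used only as values placed beside the others. The D0 cells had also spent more time on the plate than the Prol cells, so that density and time in culture cannot be told apart. No source used here says that the replicates were separate cultures, and p-values therefore measure the spread between these libraries, which may be technical.

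Myoblasts are the committed precursors of skeletal muscle. When they touch their neighbours on all sides, contact inhibition slows the cell cycle, and the transcriptional co-activator YAP leaves the nucleus so that its TEAD-bound target genes lose activity. Withdrawal from the cycle then allows the myogenic factors MyoD and myogenin to switch on the contractile genes once serum is lowered, while the cells also lay down a matrix that anchors the future fibre.

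The 12 libraries held 26437823 to 38283031 expected counts each (median 32347264), so that 3 counts, the limit set by a count of 0, corresponded to 0.0784 to 0.119 CPM (read counts scaled to library size, the unit of all levels given here). Of 19153 genes with values, 16623 were tested. Tmpo, the targeted gene, stood at 275, 310 and 315 CPM in the WT Prol libraries and at 228, 250 and 260 CPM in the KO Prol libraries. These values sum all Tmpo isoforms, so they cannot show the loss of LAP2α itself. Trp53 RNA was still counted, at a mean of 134 CPM in Prol and 108 CPM in D0 cells, although the paper derives all cells from a p53 knockout mouse. Of the factors that define myoblasts, Myf5 had means of 24 CPM in Prol and 27.6 CPM in D0 cells, and Myod1 was at 0.736 to 5.88 CPM in the 12 libraries. The summed level of the 10 measured myoblast markers was 433 to 571 CPM in Prol and 437 to 697 CPM in D0 libraries, and Pax7 and Msc were not analysed here. Markers of endothelial cells summed to 3.18 to 6.73 CPM and those of macrophages and other leukocytes to 7.80 to 12 CPM. Mitochondrial transcripts took 1.5% to 5.35% of the Prol and 1.05% to 4.71% of the D0 libraries and were higher at D0 in 1 of 6 pairs.

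The promoters of the genes with the smallest p-values are shown here, since the genes that moved together can then be read for shared motifs. The 4 sequences belong to the 2 risen and the 2 fallen genes with the smallest p that have a RefSeq promoter entry, which spans 250 bases before to 50 bases after the RefSeq start of the gene (GRCm38.p6, 5′ to 3′ on the strand of the gene). They are Col5a3 (chr9:20815018-20815317, minus strand) and Fas (chr19:34290409-34290708, plus strand), which rose, and Siglecg (chr7:43407989-43408288, plus strand) and Rbm38 (chr2:173021652-173021951, plus strand), which fell. Capitals mark matches to the AP-1 motif TGANTCA on either strand.
Col5a3: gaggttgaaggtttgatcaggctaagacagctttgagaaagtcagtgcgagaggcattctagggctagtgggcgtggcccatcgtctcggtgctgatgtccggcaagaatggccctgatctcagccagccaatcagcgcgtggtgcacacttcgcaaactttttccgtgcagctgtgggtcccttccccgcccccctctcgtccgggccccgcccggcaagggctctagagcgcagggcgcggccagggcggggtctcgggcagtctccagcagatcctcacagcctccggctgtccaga
Fas: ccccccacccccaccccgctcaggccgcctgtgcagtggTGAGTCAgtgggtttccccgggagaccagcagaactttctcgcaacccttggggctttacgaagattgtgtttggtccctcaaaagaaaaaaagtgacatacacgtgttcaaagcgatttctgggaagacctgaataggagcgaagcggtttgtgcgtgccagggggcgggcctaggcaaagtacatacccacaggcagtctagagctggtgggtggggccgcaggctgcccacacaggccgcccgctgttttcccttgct
Siglecg: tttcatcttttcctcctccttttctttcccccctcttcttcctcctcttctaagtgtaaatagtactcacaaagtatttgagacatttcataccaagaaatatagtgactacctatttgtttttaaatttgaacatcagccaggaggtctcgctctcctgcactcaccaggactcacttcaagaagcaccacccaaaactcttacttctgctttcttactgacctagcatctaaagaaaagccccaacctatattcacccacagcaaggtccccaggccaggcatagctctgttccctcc
Rbm38: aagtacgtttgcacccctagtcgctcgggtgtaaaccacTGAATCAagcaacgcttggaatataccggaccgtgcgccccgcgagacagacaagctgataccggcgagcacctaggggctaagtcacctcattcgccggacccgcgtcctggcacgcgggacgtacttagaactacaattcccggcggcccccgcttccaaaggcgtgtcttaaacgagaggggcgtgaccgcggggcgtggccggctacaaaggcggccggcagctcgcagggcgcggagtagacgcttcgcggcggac
Fas and Rbm38, 1 risen and 1 fallen gene, each held an AP-1 match, and none of the 4 windows held the TEAD motif GGAATG on either strand. Of the called genes described below, 33 of the 46 that rose and 12 of the 14 that fell had an entry. The AP-1 motif was in 4 (12.1%) of the risen and 3 (25%) of the fallen promoters, against 7.93% of all 27025 promoters of the same length. TEAD matches were in 4 (12.1%) of the risen and 0 of the fallen promoters, against 14.6% of all promoters. The E-box CANNTG, which myogenic factors bind, was in 69.7% of the risen and 58.3% of the fallen promoters, against 72.2% of all promoters. A match describes letters in this window and no binding was measured.

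Few genes were called as changed when the cells became confluent. At an adjusted p under 0.05 (limma with the pair as a block, Benjamini-Hochberg over all genes), 60 genes were called, which is 0.361% of those tested, beside 2968 genes (17.9%) at an unadjusted p under 0.05. Of these, 46 rose (0.277% of all genes) and 14 fell (0.0842%). Bulk RNA cannot tell a higher level in each cell from a larger share of cells that carry a transcript. The absolute log2 fold change of the 60 genes ran from 0.44 to 1.84 with a median of 0.73, and 45 of them changed by more than 1.5-fold. All 60 moved the same way in 6 of 6 pairs, as did 11.6% of all genes (4.82% upward and 6.8% downward). In 10 of the 60 genes, the 6 D0 libraries did not overlap the 6 Prol libraries, an arrangement in which the D0 libraries lay above in 0.18% and below in 0.217% of all genes. A second rule, with an unadjusted p under 0.05, a change over 1.5-fold and at least 10 CPM in a library, gave 126 genes (0.758%), 91 of them higher (0.547%) and 35 lower (0.211%), and 32 genes met both rules. The count depended on the pairing: without the block no gene was called by adjusted p (0, with 668 at an unadjusted p under 0.05) and 62 met the second rule. Leaving out both pairs numbered 1, 2 or 3 gave 331, 3 or 0 calls by adjusted p. The fit counts the 6 pairs as independent. WT and KO pairs of the same number shifted together, as in the matrix list below, so these adjusted p-values may be too small.

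**Figure D1:**
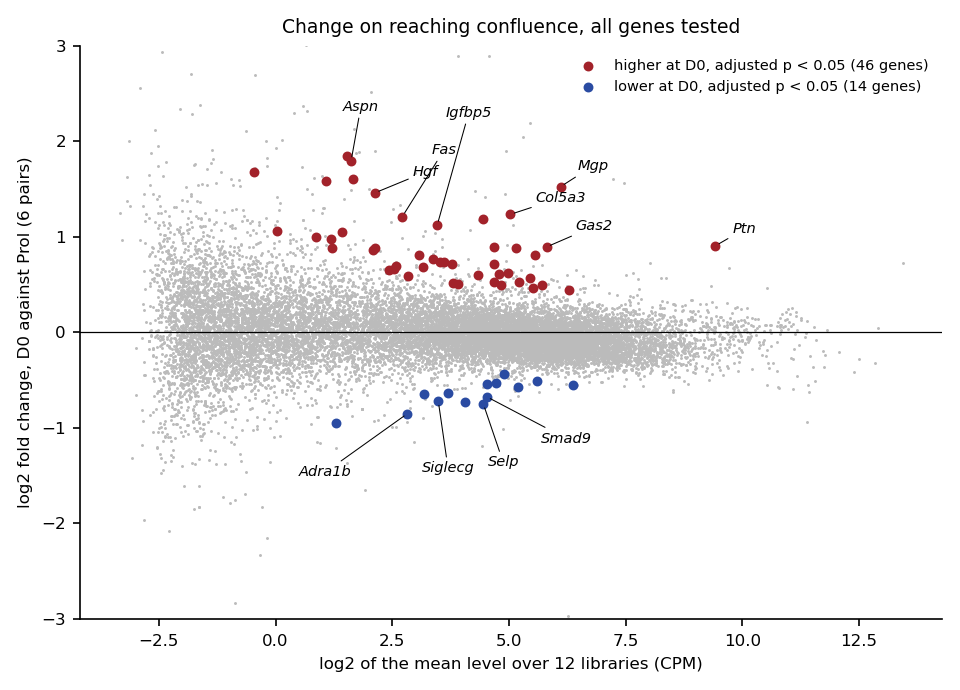
Each point is 1 of the 16623 genes tested, with the log2 of its mean level over the 12 libraries (CPM) on the x axis and its log2 fold change from Prol to D0 over 6 pairs on the y axis. Red points are the 46 genes that rose and blue points the 14 that fell at an adjusted p under 0.05. The called genes span low to high levels, and 13 genes, none of them called, lie beyond the axis at a log2 change over 3.

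Secreted proteins of the extracellular matrix were among the genes that rose. Mgp, which encodes matrix Gla protein, a small inhibitor of calcification, and Col5a3, a chain of the fibril-forming collagen V, had the smallest p-values of all genes. Mgp (ENSMUSG00000030218, chr6:136872435-136875823, minus strand) was at 26.1, 28.3 and 45.0 CPM in WT Prol and at 33.2, 34.4 and 40.7 CPM in KO Prol. At D0 it was at 66.0, 90.7 and 175 CPM in WT and at 79.3, 83.4 and 126 CPM in KO. Every D0 library thus lay above every Prol library, with means of 34.6 ± 7.22 and 103 ± 40.5 CPM (SD, n = 6). The log2 fold change of Mgp was 1.52 ± 0.102 (SE, limma, adjusted p = 0.000705).

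Col5a3 (ENSMUSG00000004098, chr9:20770050-20815067, minus strand) ran from 11.4 through a median of 20.8 to 25.6 CPM in Prol and from 31.6 through 42.0 to 70.5 CPM in D0 libraries. The groups did not overlap, and the log2 fold change was 1.23 ± 0.106 (adjusted p = 0.00368). Aspn, encoding asporin, a small leucine-rich proteoglycan that binds collagen, had the largest rise among the called genes that reached 10 CPM in a library. It was at 0.219 to 3.66 CPM in Prol (median 1.02) and at 1.15 to 12.2 CPM at D0 (median 3.21), with a log2 fold change of 1.79 ± 0.257 (adjusted p = 0.0317). Its groups overlapped, since the starting level differed between pairs, but it was higher at D0 in each pair. The call of Aspn was lost when only genes reaching 10 CPM were tested (limma, adjusted p = 0.0917). It was also lost without WT pair 1, WT pair 3, KO pair 1 or KO pair 2 (adjusted p 0.0619 to 0.130).

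Other matrix and matrix-binding proteins were among the 46 risen genes. They were picked out after their values were seen. Spon2, a secreted spondin, rose by 1.84 on the log2 scale, from a mean of 1.22 to 4.55 CPM. Sned1, a matrix glycoprotein, rose by 0.80 (33.5 to 60.3 CPM). Islr, a secreted leucine-rich repeat protein, rose by 1.58 (0.950 to 3.27 CPM), and Tnfaip6, a hyaluronan-binding protein, rose by 0.70 (4.57 to 7.46 CPM). Adamts16, a secreted metalloprotease, rose by 1.68 from a mean of 0.356 to 1.10 CPM.

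Taking the matrix as a list, 37 of its 40 genes were tested and 2 were called, both higher (Mgp and Col5a3). At an unadjusted p under 0.05, 8 members were higher and 2 lower, where 7.24% of all genes were higher and 10.6% lower. Postn (periostin), which was not called, had a log2 difference of 0.46 with an adjusted p of 0.0526, Col15a1 of 0.55, Col6a2 of 0.62 and Col6a1 of 0.57. Lamb1, a laminin chain of the basement membrane, was at -0.33. The median over the list was 0.12, beside -0.03 over all genes, but it was 0.71 and 0.57 in the WT and KO pairs numbered 1 and -0.39 and -0.35 in the pairs numbered 2. Without the pairs numbered 1 the list median was -0.16, and without those numbered 2 it was 0.35 with 18 members higher.

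Proteases that work in the matrix included 1 called gene of 23 tested, Plat, the tissue plasminogen activator. Plat was at 18.8, 19 and 29.0 CPM in WT Prol and at 23.4, 28.6 and 31.0 CPM in KO Prol. It was at 37.4, 45.6 and 51.9 CPM in WT D0 and at 38.6, 40.3 and 60.3 CPM in KO D0, so the groups did not overlap. The log2 fold change was 0.88 ± 0.103 (adjusted p = 0.0111). At an unadjusted p under 0.05, 4 members were higher and 0 lower, where 7.24% of all genes were higher and 10.6% lower. The higher ones included Mmp9 (log2 difference 0.96, at 0.948 CPM in Prol) and Adamts2, the procollagen peptidase (0.44). Without the pairs numbered 1, 5 members were higher and 5 lower. Without those numbered 2, 7 were higher and 0 lower, and without those numbered 3, 4 were higher and 3 lower. Serpinb1a, an intracellular inhibitor of neutrophil-type proteases, was not in that list and rose by 1.60 ± 0.274 (adjusted p = 0.0482), from 0.816 to 2.15 CPM in Prol to 2.17 to 10.4 CPM at D0. It has close copies in the mouse genome that may share its reads. The call of Serpinb1a was lost on leaving out any 1 pair (limma, adjusted p 0.0716 to 0.134).

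Among growth factors, Hgf, the ligand of the Met receptor that wakes satellite cells, was at 0.928 to 3.95 CPM in Prol (median 2.09) and 3.34 to 15.8 CPM at D0 (median 5.03). It rose by 1.46 ± 0.170 on the log2 scale (adjusted p = 0.0111). Its highest value, 15.8 CPM, was in KO D0 replicate 2, whose Prol partner had the highest of the Prol values, 3.95 CPM. Ptn, encoding the heparin-binding growth factor pleiotrophin, was at 313 to 717 CPM in Prol (median 414) and 508 to 1378 CPM at D0 (median 953), a log2 fold change of 0.90 ± 0.132 (adjusted p = 0.0344). Igfbp5, which binds insulin-like growth factors and is made by differentiating myoblasts, ran from 4.41 to 8.74 CPM in Prol (median 6.79) and from 6.98 to 27.1 CPM at D0 (median 13.3), and rose by 1.12 ± 0.152 (adjusted p = 0.0234). For both genes the 2 ranges overlapped while each D0 library exceeded its own Prol partner.

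Chemokines and guidance ligands were also found among the risen genes, again chosen after their values were seen. Ccl2, Ccl7 and Ccl9, which attract monocytes, rose by 0.57, 0.72 and 0.74 on the log2 scale. Their Prol means were 35.5, 19.7 and 9.14 CPM and their D0 means 52.4, 31.7 and 15.3 CPM. Sema3d, a secreted semaphorin, rose by 0.88 (2.96 to 5.84 CPM). Leukocyte markers summed to 8.66 to 10.5 CPM in Prol and 7.80 to 12 CPM in D0 libraries, and 3 of 6 pairs were higher at D0.

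Of the receptors and surface proteins that rose, Fas, the death receptor bound by Fas ligand, had the smallest p. It was at 2.01, 2.69 and 8.37 CPM in WT Prol, at 2.56, 3.15 and 4.86 CPM in KO Prol, at 6.0, 6.16 and 19.8 CPM in WT D0 and at 5.24, 5.76 and 12.3 CPM in KO D0. The replicates numbered 2 were the highest in all 4 groups, and the ranges overlapped, since the highest Prol value, 8.37 CPM, exceeded the lowest D0 value, 5.24 CPM. The log2 fold change of Fas was 1.21 ± 0.116 (adjusted p = 0.00574). Il13ra1, a chain of the interleukin-13 receptor, rose by 0.60, Cd200, an inhibitory membrane glycoprotein, by 0.77, and Ptger1, a receptor of prostaglandin E2, by 0.88.

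Within the cell, Gas2 was the only called member among 23 tested genes of cell-cycle exit. Gas2 binds actin and microtubules and was named for its higher level in growth-arrested fibroblasts. It was at 27.6 to 55.6 CPM in Prol (median 36.3) and at 42.3 to 121 CPM at D0 (median 66.0), and rose by 0.89 ± 0.0979 (adjusted p = 0.0108). Nrep, a small protein of regenerating neurons and wound myofibroblasts, rose by 1.19 ± 0.175, from a median of 11.2 to 27.3 CPM. S100a16, a calcium-binding protein, rose by 0.90 ± 0.0897, from 17.8 to 33.8 CPM. Nrep was highest in the replicates numbered 2 of each group, and S100a16 lowest in those numbered 1.

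**Figure D2:**
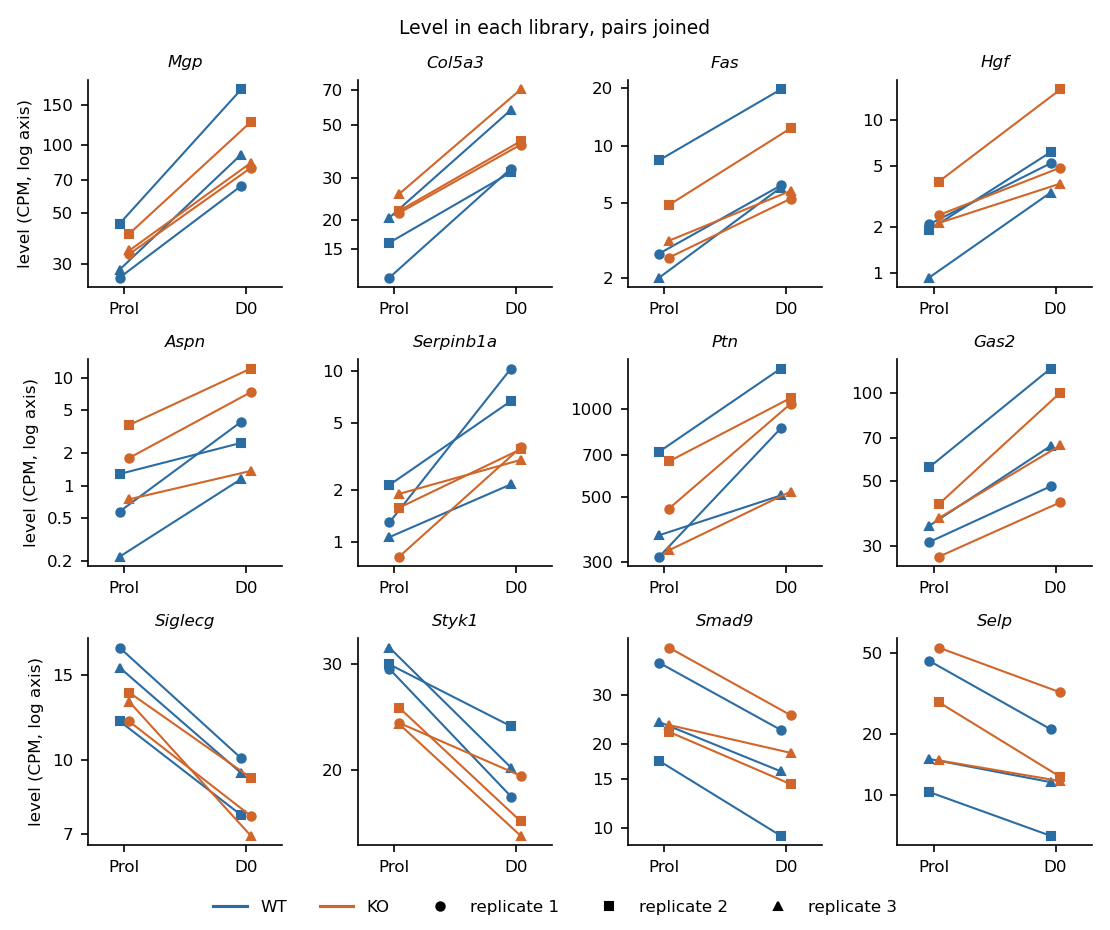
Level in each library (CPM, log axis) of 8 genes that rose and 4 that fell, with Prol on the left and D0 on the right of each panel and a line joining the libraries of 1 pair. Colour gives the genotype and the symbol the replicate number. The lines run in the same direction in 6 of 6 pairs of every panel, which the rule for the largest rises and falls required. The groups are fully separated for Mgp, Col5a3, Serpinb1a, Siglecg and Styk1.

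The 14 genes that fell included regulators of transcription and signalling and proteins of the cell surface, and each changed by less than 1 on the log2 scale. Smad9, which carries BMP signals to the nucleus, ran from 17.4 to 44.3 CPM in Prol (median 23.6) and from 9.34 to 25.3 CPM at D0 (median 17.2). It fell by 0.67 on the log2 scale (SE 0.0901, adjusted p = 0.0234). Rbm38, an RNA-binding protein that is itself a p53 target and is required for myoblast differentiation, fell by 0.73 (SE 0.0891, adjusted p = 0.015), from a mean of 20.5 to 12.7 CPM.

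Surface proteins and receptors that fell included Siglecg, a sialic acid-binding lectin of B cells. It was at 12, 15.6 and 17.1 CPM in WT Prol, at 12, 13.2 and 13.8 CPM in KO Prol, at 7.66, 9.37 and 10.1 CPM in WT D0 and at 6.93, 7.62 and 9.16 CPM in KO D0. No D0 library reached the lowest Prol library, and Siglecg fell by 0.72 (SE 0.0844, adjusted p = 0.0111). Selp, or P-selectin, a leukocyte adhesion molecule of platelets and endothelium, fell by 0.75 (SE 0.127, adjusted p = 0.0455), with 10.4 to 53.1 CPM in Prol and 6.32 to 32.0 CPM at D0. Its highest levels were in the replicates numbered 1. The call of Selp was lost on leaving out any 1 pair (limma, adjusted p 0.0717 to 0.130). Adra1b, an adrenergic receptor, fell by 0.85 (SE 0.134, adjusted p = 0.0371), and Dlk2, a membrane protein related to the Notch ligands, fell by 0.63 (SE 0.0855, adjusted p = 0.0234). The call of Dlk2 was lost on leaving out any 1 pair other than WT pair 2 (limma, adjusted p 0.0628 to 0.112).

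Signalling proteins were also among the falls. Pik3cb, a catalytic subunit of phosphoinositide 3-kinase, fell by 0.57, from a median of 45.5 to 34.3 CPM. Cobll1, an actin-associated protein, fell by 0.55 (96.6 to 68.2 CPM), and Styk1, a receptor kinase-like protein, fell by 0.54 (27.4 to 18.9 CPM). Fgd3, an exchange factor for the small GTPase Cdc42, which was singled out after its values were seen, fell by 0.51 from 51.0 to 64.5 CPM in Prol to 30.9 to 48.5 CPM at D0. In Styk1 and Fgd3 the groups did not overlap.

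Genes of the cell cycle were lower at D0 as a body but by small amounts, and none of them was called. Of 38 genes of DNA replication, 0 passed the adjusted test, 19 were lower and 0 higher at an unadjusted p under 0.05, and the median log2 difference was -0.22. Of 32 mitotic genes, likewise, 0 passed, 21 were lower and 0 higher unadjusted, and the median was -0.25. Over all genes, 10.6% were lower and 7.24% higher at that threshold, and the median was -0.03. The summed level of the replication genes was 4453 to 5154 CPM in Prol and 3781 to 4895 CPM at D0, and that of the mitotic genes 5403 to 6592 and 4144 to 5936 CPM. Both sums were lower at D0 in 6 of 6 pairs. The number of lower members was 5 and 4 without the block and 9 and 12 without the pairs numbered 2, 7 and 8 in the WT pairs alone and 0 and 4 in the KO pairs alone.

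Within these lists, Pola2, a subunit of the polymerase that primes DNA synthesis, had the smallest p of the replication genes. It was at 59.8 to 70.1 CPM in Prol and 42.8 to 61.6 CPM at D0, a log2 difference of -0.39 ± 0.0814 (adjusted p = 0.0892). Mcm10, which helps to start the replication fork, differed by -0.32 (adjusted p = 0.132). Mybl2 and Foxm1, transcription factors that drive the mitotic programme, differed by -0.46 (adjusted p = 0.0613) and -0.38 (adjusted p = 0.0972). Mki67, the proliferation marker Ki-67, was at 221 to 399 CPM in Prol and 125 to 464 CPM at D0, with a log2 difference of -0.34 ± 0.138 (adjusted p = 0.246). Its highest value of all 12 libraries was in WT D0 replicate 1.

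The list of cell-cycle exit, which holds D cyclins and E2F factors as well as inhibitors, gave no uniform picture. Ccnd1, cyclin D1, which links serum growth factors to the retinoblastoma protein, was at 193 to 366 CPM in Prol and 103 to 263 CPM at D0, a log2 difference of -0.56 ± 0.129 (adjusted p = 0.116). The level was lower in 5 of 6 pairs, and KO pair 3 was at 247 and 249 CPM. The inhibitor Cdkn1b (p27) differed by 0.11 (adjusted p = 0.432) and Cdkn1c (p57), at 0.0937 to 2.56 CPM in the 12 libraries, by 0.57 (adjusted p = 0.35). Over the list of 23 genes, 3 were higher and 7 lower at an unadjusted p under 0.05, and the median was -0.02. Over all genes, 7.24% were higher and 10.6% lower.

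The targets of YAP and TEAD, which report on cell density, included no called gene among 24 tested. At an unadjusted p under 0.05, 9 were lower and 1 higher, where 10.6% of all genes were lower and 7.24% higher. The median log2 difference was -0.20 beside -0.03 over all genes. Ankrd1, a stress-responsive nuclear protein of muscle, was at 186 to 312 CPM in Prol (median 284) and 149 to 230 CPM at D0 (median 188). It differed by -0.49 ± 0.101 (adjusted p = 0.0878), and Ajuba, a junction protein, by -0.42 ± 0.0898 (adjusted p = 0.0966). The secreted proteins Ccn1 and Ccn2, the targets used most often, differed by -0.22 and 0.01 (adjusted p = 0.401 and 0.986). Ccn2 was lower at D0 in the pairs numbered 1, with 175 and 58.7 CPM in WT, and higher in those numbered 3, with 86.4 and 188 CPM in WT. Without the block 2 members of the list were lower, and without the pairs numbered 2 there were 4.

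Glycolysis and hypoxia genes were the other list that was lower in sum in 6 of 6 pairs. Of 29 tested, 0 were called, 10 were lower and 1 higher at an unadjusted p under 0.05, and the median was -0.17. Over all genes, 10.6% were lower and 7.24% higher at that threshold, and the median was -0.03. The sum was 11232 to 13899 CPM in Prol and 7265 to 13808 CPM at D0. Egln3, an oxygen-sensing prolyl hydroxylase, differed by -0.38 (adjusted p = 0.133), and Pfkfb3, which raises the activator of phosphofructokinase, by -0.29 (adjusted p = 0.159). The number of lower members was 1 without the block and 4 without the pairs numbered 2.

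Myog, the myogenin gene that marks entry into differentiation, was at 0.388 to 1.59 CPM in Prol (median 0.684) and 0.50 to 4.53 CPM at D0 (median 1.15), with a log2 difference of 0.88 ± 0.301 (adjusted p = 0.193). The 2 highest D0 values, 4.53 and 3.15 CPM, were in WT replicate 1 and KO replicate 2. Myod1 differed by 0.16 ± 0.304 (adjusted p = 0.802) and was higher at D0 in 3 of 6 pairs. Of 27 tested genes of contraction and muscle function, 0 were called, and 6 were higher and 1 lower at an unadjusted p under 0.05. Over all genes, 7.24% were higher and 10.6% lower. The 6 higher members became 1 without the block, and 2 with a block of 3 replicate numbers or with voom weights and a random block. They were 9 with voom weights alone, 2 without the pairs numbered 2, 6 in the WT pairs alone and 2 in the KO pairs alone. Tnnt1, slow troponin T, was at 0.183 to 0.840 CPM in Prol and 0.436 to 2.26 CPM at D0, a log2 difference of 1.02 ± 0.260 (adjusted p = 0.136). The median of the list was 0.34, with 0.61 in the WT and 0.08 in the KO pairs, and it was 0.06 over members reaching 10 CPM. Of the 27 myogenic regulators, Igfbp5 alone was called, and it rose. Its call was lost with voom weights and a random replicate block (estimated correlation, limma adjusted p = 0.0509), without the block, and on leaving out any 1 pair other than WT pair 2 (adjusted p 0.0565 to 0.122).

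Immediate early genes, which answer serum, included no called gene among 28. Egr2, a zinc-finger factor, was at 0.573 to 1.68 CPM in Prol and 1.16 to 4.41 CPM at D0, with a log2 difference of 1.09 ± 0.193 (adjusted p = 0.0529). Srf, the serum response factor itself, differed by -0.41 ± 0.0897 (adjusted p = 0.0969). In all, 3 members were higher and 7 lower at an unadjusted p under 0.05, beside 7.24% and 10.6% of all genes. The 7 lower members became 4 without WT pair 3, 3 without WT pair 2 or KO pair 2, 1 without the block or the pairs numbered 2, and 0 with all 18 libraries.

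The remaining lists held no called gene, and their counts at an unadjusted p under 0.05 stand beside 7.24% higher and 10.6% lower over all genes. Lysosomal genes were higher in 6 of 27 and lower in 0 at an unadjusted p under 0.05, with Lamp2, a lysosomal membrane protein, at a log2 difference of 0.24 (adjusted p = 0.15) and Npc2, which carries cholesterol, at 0.25 (adjusted p = 0.207). Only 1 lysosomal gene was higher without WT pair 2, WT pair 3 or KO pair 3, 2 were higher without KO pair 1, the block or the pairs numbered 2, 0 without the pairs numbered 3, and 4 were higher and 5 lower without those numbered 1. Amino acid genes controlled by ATF4 were higher in 3 of 26 and lower in 0, with Cth, which makes cysteine, at 0.55 (adjusted p = 0.0529) and Psph, the last step of serine synthesis, at 0.31 (adjusted p = 0.136). The ATF4 list had 3 higher and 5 lower members and a median of -0.089 without the pairs numbered 1, and 10 higher and a median of 0.33 without those numbered 2. Adhesion genes were higher in 2 and lower in 3 of 24, with Cadm1 at -0.58 (adjusted p = 0.0878) and N-cadherin (Cdh2) at -0.45 (adjusted p = 0.169). Lipid synthesis genes were higher in 2 and lower in 5 of 28, with Elovl6, a fatty acid elongase, at -0.29 and Fasn, the fatty acid synthase, at -0.47 (both with an adjusted p of 0.147). In the TGF-β and BMP list, 4 were higher and 3 lower of 30, with the BMP antagonist Nog at -0.89 (adjusted p = 0.0966) and the inhibitory Smad6 at -0.44 (adjusted p = 0.162). Notch genes were higher in 2 and lower in 2 of 14, with the ligand Jag1 at 0.30 (adjusted p = 0.139) and Dtx4 at -0.26 (adjusted p = 0.203). Interferon and antigen presentation genes were higher in 2 and lower in 0 of 25, with Isg15 at 0.69 (adjusted p = 0.108) and Psmb8 at 0.64 (adjusted p = 0.193).

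**Figure D3:**
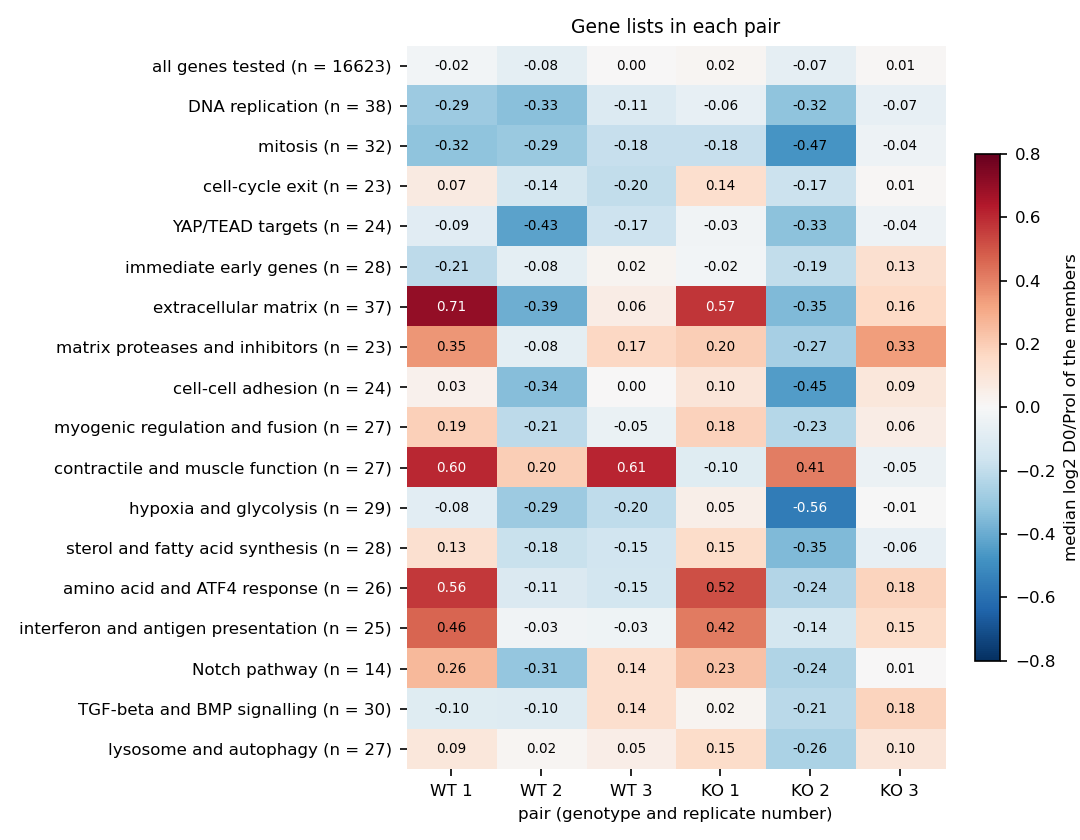
Median log2 ratio of D0 to Prol over the tested members (n) of each gene list, in each of the 6 pairs, with all 16623 genes in the top row. Replication, mitosis and YAP/TEAD lists are below 0 in every pair, whereas the extracellular matrix list is at 0.71 and 0.57 in the pairs numbered 1 and at -0.39 and -0.35 in those numbered 2.

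The pairs differed by replicate number in how many genes moved, in both genotypes. Counting genes with at least 10 CPM in a library and a change over 1.5-fold, WT pairs 1, 2 and 3 held 1139, 1587 and 326 genes, and KO pairs 1, 2 and 3 held 611, 1379 and 254 genes. In the pairs numbered 2, falls outnumbered rises, with 1305 against 282 in WT and 1045 against 334 in KO. In the pairs numbered 1, rises were the more frequent, with 593 against 546 in WT and 404 against 207 in KO. The D0 cells numbered 3 were closest to their Prol partners in both genotypes.

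Whether confluence acted differently in cells without LAP2α was asked with the interaction of state and genotype. No gene passed an adjusted p under 0.05 (limma, 0%), 281 genes (1.69%) had an unadjusted p under 0.05, and 51 (0.307%) met the second rule, 27 with a larger and 24 with a smaller value in KO. In the same fit to all 12 libraries, the change within WT gave 2 genes by adjusted p, 163 by the second rule and 1462 at an unadjusted p under 0.05. The change within KO gave 0, 92 and 769, and both used 1 residual variance taken from the 2 genotypes together. Separate fits of the 3 pairs of each genotype gave 0 genes in WT and 3 in KO by adjusted p (limma). By the second rule they gave 160 and 115. Mgp had a log2 fold change of 1.66 in WT and 1.39 in KO, and Siglecg of -0.72 and -0.73. Across genes, the WT and KO log2 fold changes had a Pearson correlation of 0.60 over the 9958 genes that reached 10 CPM in a library and 0.26 over all genes, where WT and KO libraries of 1 number deviated together and genes are not independent replicates. The 3 genes with the smallest interaction p under the second rule were Gm12184, Rpl14-ps1 and Acat3, each of which has close copies that may share its reads. Gm12184 differed by -0.61 in WT and 0.47 in KO. Rpl14-ps1 differed by -0.12 and 0.89, and Acat3 by 2.11 and -0.10. Tmpo itself differed by -0.18 in WT and -0.14 in KO, and by -0.16 over both genotypes (adjusted p = 0.295), although it was lower at D0 in 6 of 6 pairs.

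**Figure D4:**
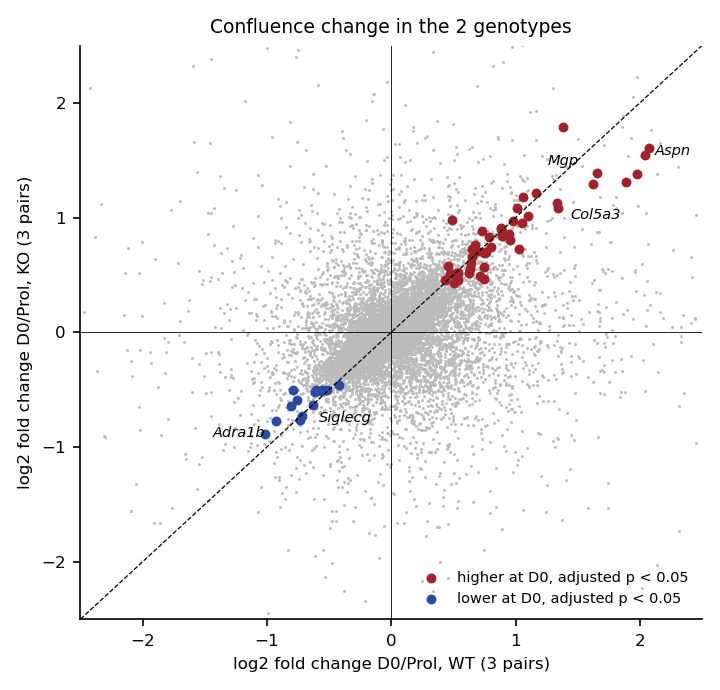
Log2 fold change from Prol to D0 of each gene in the WT pairs (x axis) and the KO pairs (y axis), with the line of equality dashed. The 46 risen (red) and 14 fallen (blue) genes lie in the upper right and lower left of the plot, Mgp at 1.66 and 1.39.

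Values after 2 days in low serum are placed beside these for the called genes. The D2 cells differ from Prol cells in serum as well as in density, and both differences use the same Prol libraries, so they are not independent of each other. Of the 46 genes that rose, 44 had a mean log2 level above Prol at D2 in both genotypes. Aspn, Igfbp5 and Mgp reached a mean of 217, 680 and 511 CPM at D2, with mean D0 levels of 4.76, 15.5 and 103 CPM. Gas2, in contrast, was at 73.8 CPM at D0 and 71.3 CPM at D2, and Hgf at 6.53 and 7.66 CPM. Kazald1, a secreted matrix protein, was at 16.6 CPM at D0 and 9.65 CPM at D2.

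Of the 14 genes that fell, 11 had a mean log2 level below Prol at D2 in both genotypes. Rbm38 and Dmpk were among the others. The share of all genes with such D2 levels was not counted. Smad9 was at a mean of 28.3 CPM in Prol, 17.6 CPM at D0 and 4.01 CPM at D2. Rbm38 was at 20.5, 12.7 and 19.7 CPM. Dmpk, the myotonic dystrophy kinase of muscle, was at 31.1, 21.9 and 132 CPM, so its level at D2 was above that of both earlier states. Tmeff2, a membrane protein, was at 3.17, 1.75 and 5.05 CPM. The mitotic list, at 4144 to 5936 CPM at D0, summed to 750 to 1331 CPM at D2.

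**Figure D5:**
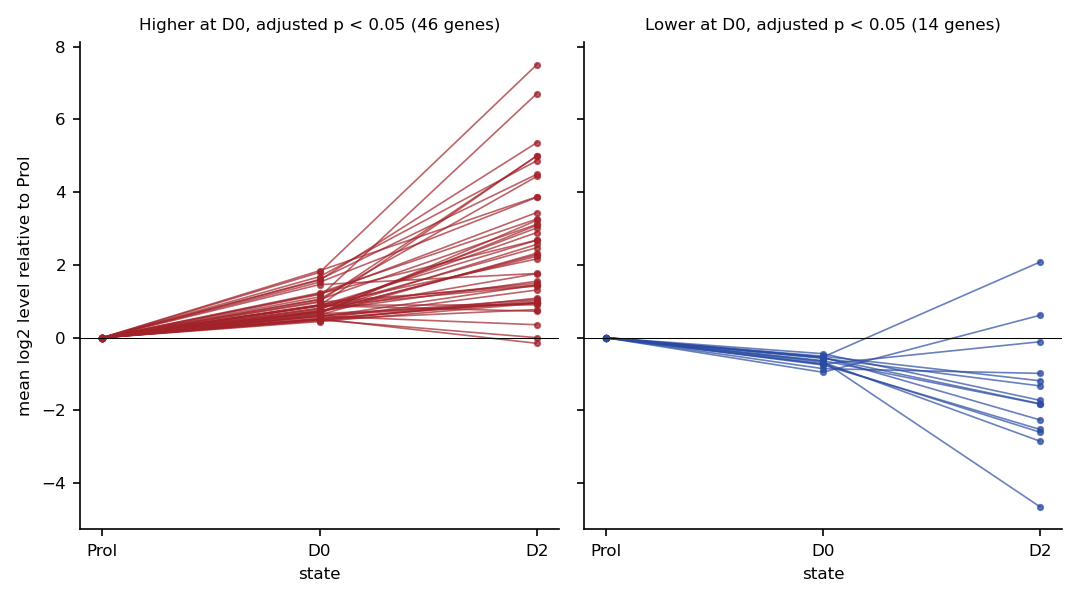
Mean log2 level of the 46 genes that rose (left) and the 14 that fell (right) at an adjusted p under 0.05, relative to Prol, in Prol, D0 and D2 libraries, with 1 line per gene. D0 and D2 are both measured against the same Prol libraries. Dmpk is the blue line that ends highest.

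Markers of other cell types were followed in the same libraries. The chondrocyte and osteoblast markers summed to 693 to 1048 CPM in Prol and 882 to 1986 CPM at D0 and were higher at D0 in 4 of 6 pairs. The median of the 8 tested members was -0.17, with 5 of them negative, and most of the sum was Spp1, osteopontin, with means of 606 and 1069 CPM and a log2 difference of 0.67 (adjusted p = 0.149). Smooth muscle and pericyte markers summed to 432 to 947 CPM in Prol and 618 to 933 CPM at D0. Fibroblast and fibro-adipogenic markers summed to 38.4 to 94.5 CPM and 35.2 to 135 CPM and were higher at D0 in 2 of 6 pairs. Of the 7 tested fibroblast markers, 2 were higher and 0 lower at an unadjusted p under 0.05, 7 were positive and the list median was 0.14, while the sum was lower at D0 in most pairs. Dpt, a dermal matrix protein, had means of 0.407 and 1.35 CPM and a log2 difference of 1.82 (adjusted p = 0.0529). Adipocyte markers summed to 48.9 to 117 CPM and 41.7 to 146 CPM. No marker of any of these lists was called. The part of other cell types in the changes above was not tested.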

How the data were processed

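RNA-seq libraries (poly(A)-selected, strand-specific) came from 18 samples, 3 per group, of which 12 entered the tests. The authors mapped trimmed reads to the GRCm38 transcriptome with NextGenMap, estimated expected counts per gene with RSEM and deposited CPM values per gene after TMM scaling in edgeR. These CPM values include a small constant added to each count, so that none is 0, and the tables were written with decimal commas. Expected counts and library totals were recovered from them, and between 45.7% and 51.2% of the recovered counts under 20 in the 12 libraries were whole numbers within 0.02, so no whole reads could be recovered and no count test was run. Levels are not corrected for gene length and are compared only within a gene.

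A gene was kept (16623 of 19153) if every library of some group, of the 4 compared, exceeded 5 counts. Log2 CPM was fitted with limma 3.58.1 in R 4.3.3, with a variance trend and the pair (genotype and replicate number, 6 pairs) as a block, and p-values were adjusted by the Benjamini-Hochberg method. Sequencing lane, which the study used as a block, is not in the labels, and the replicate number stands in for it. Deviations of same-numbered Prol and D0 libraries from their group means correlated at 0.348 to 0.536 in the 6 pairs, and those of WT and KO libraries of the same number at 0.188 to 0.563, so the numbers were taken to pair the libraries. The study's methods give the fold threshold on the log2 scale, and that setting was run as an alternative. The interaction of state and genotype used the same 12 libraries. Symbols and positions came from GENCODE M21 (19072 of 19153 identifiers matched) and promoters from RefSeq.

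The comparison, gene lists and rule for named genes were chosen with earlier results of these data known. Named genes were the 10 largest rises and 10 largest falls among called genes that reached 10 CPM and moved the same way in 6 of 6 pairs, up to 4 called members of each list by p or otherwise the 2 with the smallest p, the 3 genes with the smallest interaction p, and 11 fixed genes. Of these, 1 is not reported here. Other genes fall outside this rule, and only some of them are marked in the text as chosen after their values were seen. The unmarked ones should be read in the same way. Errors are the SD over libraries or the SE of the fit. Limits that rest on 3 counts cover counting error only. Alternatives were no block, a block of 3 replicate numbers, voom weights, other scalings and filters, a pseudocount of 1 CPM, all 18 libraries, each genotype alone and leaving out pairs.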

Additional observations from a re-analysis of the deposited data

Results flagged for a closer look

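Of 85 genes and lists checked for a pair that stood apart, 3 had one, where chance gives about 1 in 20. For Pola2, the primase-associated polymerase subunit, KO pair 1 had a log2 ratio of D0 to Prol of -0.043, above the other 5 pairs. For the lysosome and autophagy list, KO pair 2 had a median log2 ratio of -0.26, below the other 5 pairs. For the adipocyte markers, KO pair 1 had a median of 0.38, above the other 5 pairs.

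The change of Gm12184 ran in opposite directions in every pair of the genotypes, lower at D0 in the 3 WT pairs and higher in the 3 KO pairs. Gm12184 was picked for its small interaction p, which favours such a pattern, so the pattern is no separate support. The difference of KO and WT was 1.08 on the log2 scale, with an adjusted interaction p of 1 (limma), so it did not pass the correction.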

How the results depend on the processing

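The number called by adjusted p was 0 with no replicate block, 94 with a replicate block of 3 levels, 98 with voom weights, 13 with voom weights and a random replicate block, and 21 with all 18 libraries. It was 0 in the WT pairs only and 3 in the KO pairs only, 6 to 15 without 1 pair, and 331, 3 and 0 without replicate 1, 2 or 3. Under the second rule the 126 genes became 62 with no replicate block, 191 and 227 without replicate 1 or 3 (114 to 227 over all pairs or numbers left out), 14 with a log2 fold change over 1.5 and 508 with no minimum of CPM. Of the 60 genes, 48 kept an unadjusted p under 0.05 with no replicate block and 57 with all 18 libraries. The 22 called genes picked by the naming rule lost their call in 227 of 462 alternative fits and reversed in 0. Those that lost it on leaving out any 1 pair included Selp, Serpinb1a, Pik3cb, Cobll1, Styk1, Adra1b, Ptn and Nrep. Hgf, Rbm38 and Siglecg each lost it without WT pair 3 and without KO pair 2, among other settings. The interaction gave 1 gene by adjusted p without WT replicate 2. Its second-rule count of 51 became 5 with no replicate block, 23 with a replicate block of 3 levels, 20 with voom weights and a random replicate block, 32 with all 18 libraries and 94 without WT replicate 2 (41 to 94 over all pairs or numbers left out). Some uncalled genes reversed. Gm12184 was at 0.025, 0.093 and 0.00096 without WT replicate 1, 2 or 3 (-0.25 to 0.093 over all left out) and at 0.47 in the KO pairs only. Rpl14-ps1 was at -0.12 in the WT pairs only and Acat3 at -0.10 in the KO pairs only. Myod1 was at -0.16 without WT replicate 1 and -0.41 without replicate 1 (-0.41 to 0.51). Ccn2 was at -0.085, -0.21 and -0.17 without WT replicate 2, WT replicate 3 or KO replicate 3, and at -0.089 and -0.49 without replicate 2 or 3 (-0.49 to 0.62). Ccn1 was at 0.0013 without replicate 1 (-0.38 to 0.0013). The cause of these shifts was not tested. Genes under about 0.119 CPM rest on 3 counts or fewer.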

Other observations

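Several enzymes and stress-related proteins outside the lists were among the 46 genes that rose, and they were chosen after their values were seen. Ctso, a cysteine protease of the lysosome, rose by 0.73 on the log2 scale (limma, adjusted p = 0.0111), from a mean of 8.70 ± 4.33 to 14.2 ± 6.33 CPM (SD, n = 6). Cbr2, a carbonyl reductase, rose by 0.81 (adjusted p = 0.0234) from 6.06 to 10.7 CPM. Sphk1, which makes the lipid signal sphingosine 1-phosphate, rose by 0.66 (adjusted p = 0.0362) from 4.19 to 6.65 CPM, and Ch25h, which makes 25-hydroxycholesterol, by 0.97 (adjusted p = 0.043) from 1.56 to 2.97 CPM. The selenoprotein genes Selenop and Selenow rose by 1.00 and 0.47, and their D2 means were 38.1 and 79.3 CPM. Gmppb, which makes the GDP-mannose used to glycosylate dystroglycan, was at 9.87 to 14.2 CPM in Prol and 14.8 to 20.5 CPM at D0 without overlap, a rise of 0.50 (adjusted p = 0.0362). Each of these genes was higher at D0 in 6 of 6 pairs.

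Genes called within 1 genotype by the second rule mostly pointed the same way in the other. Of the genes higher at D0, 86.4% of 88 called in WT and 82.6% of 86 called in KO kept direction in the other genotype. Of the genes lower at D0, 84.7% of 72 called in WT and 93.1% of 29 called in KO did so. Over all genes, 73.0% had the same direction in both. Each count was taken from a fit of that genotype alone. WT and KO libraries of the same number deviated together, so the genotypes are not independent of each other here.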
